A study of Mus musculus with 6 samples.

Results

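The genes of the cytochrome P450 (Cyp), flavin-containing monooxygenase (Fmo) and aldehyde dehydrogenase (Aldh) families were followed in cortical RNA that was bound to tagged ribosomes of cells marked by S100a10 regulatory sequence and in the RNA left unbound. Members were all probe sets whose only gene symbol on the array's annotation belongs to these families, apart from 6 symbols, namely Cyp51 and the genes Cyp26b1, Aldh1a1, Aldh1a2, Aldh1a3 and Aldh1l1. The rule found 91 genes, read by 133 of the 45101 probe sets, of which 71 were Cyp, 4 Fmo and 16 Aldh genes. It used names only and no measured value. A further 6 probe sets that carry several symbols of these families were not counted.

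Cytochrome P450 enzymes are haem proteins that insert oxygen into lipids, steroids and foreign compounds. Most sit in the endoplasmic reticulum and take electrons from P450 reductase or cytochrome b5, and a few sit in mitochondria and take them from ferredoxin. Flavin-containing monooxygenases oxidise nitrogen and sulphur atoms of amines and thiols with a flavin in place of haem, and aldehyde dehydrogenases turn aldehydes from lipids, amino acids, amines and alcohol into acids. In brain, P450 enzymes are known above all for the removal of cholesterol as oxysterols and for the oxidation of arachidonic acid, and drug-metabolising forms are found at its vascular and meningeal borders.

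The data came from 6 Affymetrix arrays of mouse cortex, 3 from translating ribosome affinity purification (TRAP) and 3 from whole cortex RNA. All 6 came from the untreated transgenic line ES691, in which S100a10 regulatory sequence on a bacterial artificial chromosome drives the ribosomal tag, backcrossed for 3 to 5 generations from FVB to C57BL/6. TRAP recovers tagged ribosomes with their mRNA. Titles name the comparison RNA input and descriptions name it unbound, the term used here. The titles call the samples biological replicates, but the labels give neither the age nor the number of animals. The p-values therefore cover the variation among these samples alone, part of which may be technical. The series text states that the transgene also marks cells that are not neurons, so each TRAP value covers all marked cells.

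Median intensity over all probe sets was 31.4 to 31.8 on the TRAP arrays and 42.4 to 43.1 on the unbound arrays, and the number of arrays limits the precision. S100a10 itself was 5.86-fold higher in TRAP RNA (limma adjusted p = 8.3e-05). Markers of the named target, pyramidal neurons, were present on both sets of arrays, with 1 of 7 tested higher and 4 lower in TRAP RNA. Of 12 tested meningeal fibroblast markers 11 were higher and 1 was lower, and their summed intensity was 62592 to 66949 on TRAP arrays and 7655 to 11242 on unbound arrays. Of 9 tested pericyte and smooth muscle markers 6 were higher and 2 lower, and of 6 endothelial markers 3 were higher and 2 lower. Choroid plexus and ependymal genes gave 3 higher and 1 lower of 5 tested. Under a mean of 50 in both groups, and so not tested, were 2 further fibroblast, 2 pericyte and smooth muscle, 4 endothelial and 3 choroid plexus and ependymal markers. Lower in TRAP RNA were 7 of 10 astrocyte, 9 of 9 oligodendrocyte, 6 of 7 microglial and 7 of 8 interneuron markers, with 1 astrocyte marker higher. No marker was listed at 0.

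A probe set was tested if its mean intensity reached 50 in at least 1 group, and each gene was read by whichever of its probe sets was brightest on average across the 6 arrays. By this rule 46 of the 133 probe sets were kept and 34 of the 91 genes were tested, namely 16 Cyp, 3 Fmo and 15 Aldh genes. A gene was called when its adjusted p in limma, with Benjamini-Hochberg adjustment over all 12070 tested genes, was under 0.05. Of the 34 members, 12 were called higher (35.3%) and 13 lower (38.2%) in TRAP RNA. Of all tested genes 23.3% were called higher and 45.7% lower. A difference of at least 2-fold was called for 9 members in the higher direction (26.5%) and for 2 in the lower direction (5.88%), against 7.29% and 13.3% of all tested genes. Of these, Cyp1b1 and Cyp2f2 reached the minimum only on the TRAP arrays, and Cyp4f15 and Cyp2j9 only on the unbound arrays. With both group means at least 50, limma called 9 of 28 members higher and 10 lower, against 2332 and 4909 of 10979 genes. The median log2 fold change of the 34 members was 0.12 and that of all tested genes was -0.21. All 3 TRAP arrays lay above all 3 unbound arrays for 14 members and below them for 13, where 25.9% and 49.6% of all tested genes did so.

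**Figure D1:**
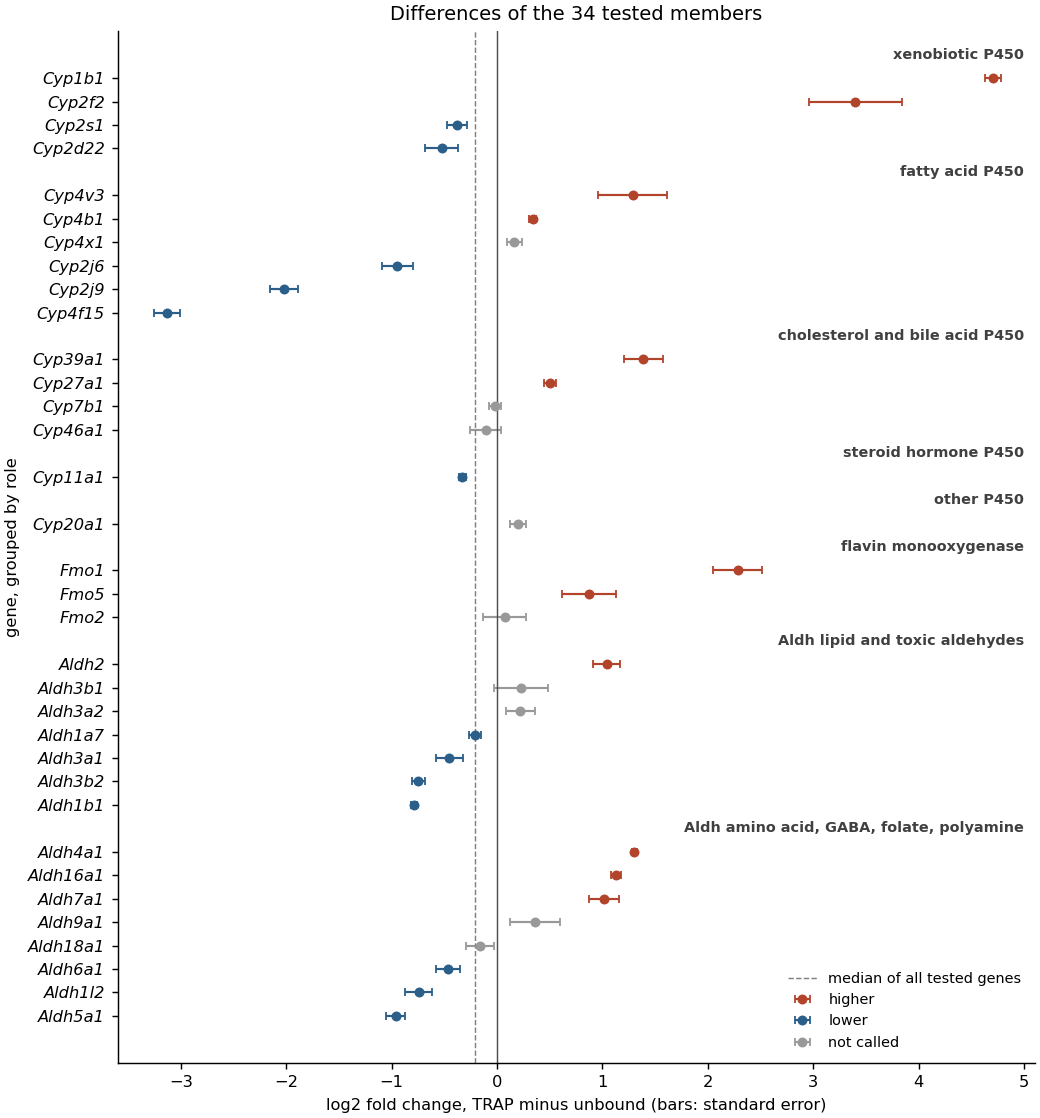
Log2 fold change between TRAP and unbound RNA (horizontal axis) of the 34 tested genes, grouped by known role, with bars for the standard error and colours for the limma call. The dashed line marks the median of all tested genes at -0.21. Cyp1b1 lies farthest to the right at 4.70 and Cyp4f15 farthest to the left at -3.13. The signs of Aldh18a1, Aldh1a7, Cyp11a1, Cyp2s1, Cyp46a1 and Cyp7b1 turn under at least 1 other scaling of the arrays.

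Among P450 enzymes of families 1 to 3 known mainly for foreign compounds, 2 members, Cyp1b1 and Cyp2f2, were strongly higher in TRAP RNA. Cyp1b1, which oxidises oestrogens, retinoids and polycyclic hydrocarbons, measured 416.7, 424 and 408.4 on the TRAP arrays and 14.3, 16.9 and 16.9 on the unbound arrays. The groups lay far apart, with the unbound values well under the level minimum of 50. The fold change was 26.1 (log2 4.70, SE 0.08, limma adjusted p = 2.1e-06), or 8.33-fold with values under 50 raised to 50. A second kept Cyp1b1 probe set gave 115 ± 12.8 against 6.70 ± 0 (SD, n = 3), which was 2.29-fold with values under 50 raised to 50, and the third averaged under 9 in both groups.

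Cyp2f2, known as the lung enzyme that activates naphthalene, measured 70.6, 216.7 and 88.6 on the TRAP arrays and 10.5, 10.5 and 10.4 on the unbound arrays. Its TRAP values spread widely, with replicate 2 highest, but none reached down to the unbound group. The fitted difference was 10.6-fold (log2 3.40, SE 0.44, limma adjusted p = 0.0016), and log2 2.92 without TRAP replicate 2. With values under 50 raised to 50 it was 2.21-fold and no longer called (adjusted p = 0.071), so its size rests on unbound values near background. Both genes were higher together with 11 of the 12 tested meningeal fibroblast markers given above. Summed markers of pericytes and smooth muscle (6047 to 7568 on TRAP arrays against 2978 to 3284) and of endothelium (5653 to 6357 against 2068 to 2247) were also higher. Of the pericyte and smooth muscle markers 6 of 9 were higher and 2 lower, and of the endothelial markers 3 of 6 higher and 2 lower. Rgs5 was 4.66-fold lower and Slco1c1 5.94-fold lower, while Itm2a, at 4088 against 467, was the largest part of the endothelial sum. In bulk RNA more marked cells of a type and more RNA per cell cannot be told apart. The part of such cells in the values of Cyp1b1 and Cyp2f2 was not tested.

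The other 2 tested members of these families were lower by less than 2-fold. Cyp2d22, one of a cluster of similar Cyp2d genes that its probe set may not fully separate, measured 72, 72 and 65.2 on the TRAP arrays against 84, 95.8 and 125.5 (log2 -0.53, limma adjusted p = 0.033), and Cyp2s1 had means of 56.5 and 73.2 (log2 -0.38, adjusted p = 0.017). Both calls were fragile. With the replicate number as a block Cyp2d22 was not called (adjusted p = 0.069). Cyp2d22 lost its call without any 1 of the TRAP samples or unbound replicate 2 (adjusted p from 0.073 to 0.099), and Cyp2s1 without any 1 of TRAP replicates 1 and 3 and unbound replicates 1 and 2 (0.054 to 0.060). Under other scalings of the arrays neither was called, and Cyp2s1 turned to 0.05 with arrays centred on all probe sets.

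**Figure D2:**
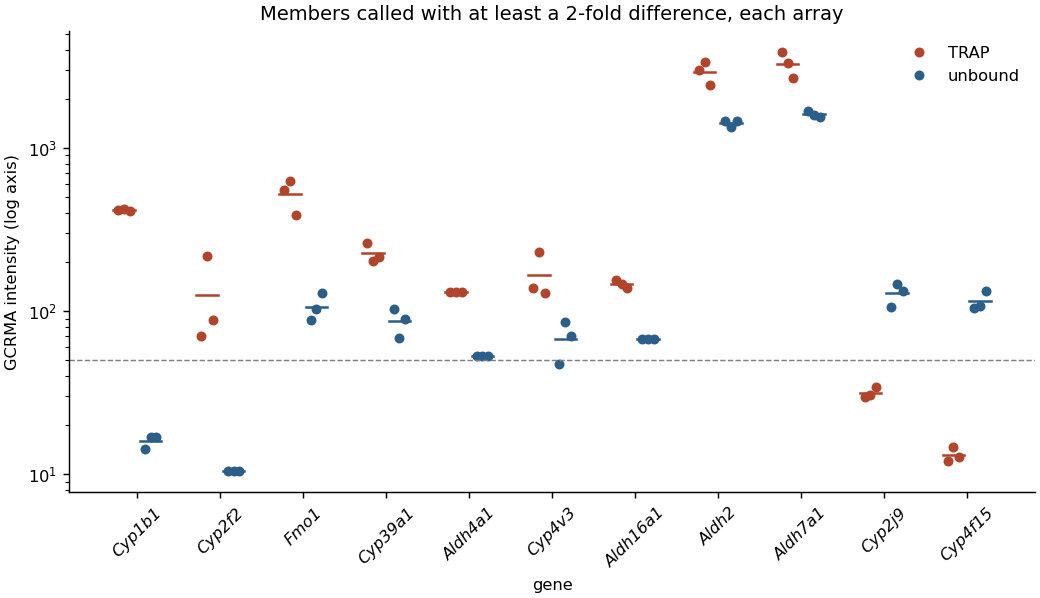
GCRMA intensity on a log axis for the 11 members called with at least a 2-fold difference, with a point for each array, a short line for each group mean and a dashed line at the level minimum of 50. TRAP points lie above unbound points for 9 genes and below them for Cyp2j9 and Cyp4f15, and no gene has groups that overlap.

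Of 6 tested P450 enzymes of fatty acids 2 were higher, 3 were lower and Cyp4x1 was not called, counts near the shares of all tested genes (23.3% higher and 45.7% lower). Cyp4f15, of the subfamily that hydroxylates the ends of leukotrienes and other eicosanoids, measured 12, 14.6 and 12.7 on the TRAP arrays and 105.1, 106.8 and 133.7 on the unbound arrays. All TRAP values were near background and all unbound values above the minimum. The gene was 8.76-fold lower in TRAP RNA (log2 -3.13, SE 0.13, limma adjusted p = 2.6e-05), or 2.29-fold with values under 50 raised to 50. Cyp2j9, a brain-expressed oxidase of arachidonic acid, measured 29.7, 30.5 and 34.2 against 106.7, 146 and 133.7, again with groups apart. It was 4.06-fold lower (log2 -2.02, SE 0.13, adjusted p = 1.4e-04), or 2.55-fold with raised values. Its relative Cyp2j6, similar enough that probes may cross-react, was 1.93-fold lower (76.3 ± 10.2 against 147 ± 22.0, SD, n = 3, adjusted p = 0.0034), and its second kept probe set was 1.21-fold lower.

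The 3 lower genes accompanied lower markers of astrocytes, whose summed intensity was 16697 to 21472 on TRAP arrays and 29097 to 39438 on unbound arrays, of oligodendrocytes (8431 to 13803 against 52283 to 57674), of microglia (424 to 600 against 1285 to 1575) and of interneurons (12695 to 15814 against 37085 to 37961). Pyramidal neuron markers summed to 12191.5 to 12772.8 on TRAP arrays and 15325.2 to 17303.5 on unbound arrays, with 4 of 7 tested lower and 1 higher. The part of these cells in the Cyp4f15, Cyp2j9 and Cyp2j6 values was not tested.

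Cyp4v3, the mouse counterpart of a fatty acid hydroxylase gene mutated in a crystalline retinal dystrophy, was higher. It measured 139.2, 230.2 and 129.6 on the TRAP arrays and 47.4, 85.8 and 70.5 on the unbound arrays, with replicate 2 highest in both groups. The difference was 2.44-fold (log2 1.29, SE 0.32, limma adjusted p = 0.018) and missed the threshold without unbound replicate 3 (adjusted p = 0.051). Its other kept probe set gave 64.1 ± 6.29 against 12.8 ± 0 (SD, n = 3), which was 1.28-fold with values under 50 raised to 50. Cyp4b1, which oxidises short fatty acids and furans, was 1.26-fold higher (92.9 ± 1.06 against 73.6 ± 1.96, adjusted p = 5.2e-04). Cyp4x1, a P450 found mainly in brain, had means of 484 and 432 and was not called (log2 0.16, adjusted p = 0.092), although its groups did not overlap. It was called higher without TRAP replicate 1 (log2 0.22, adjusted p = 0.037) and under each of 3 other scalings.

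The 3 windows that follow show the sequence before the RefSeq start of the members with the largest called differences, Cyp1b1 and Cyp2f2 among the higher and Cyp4f15 among the lower genes. Sequences are from GRCm38.p6, 5′ to 3′ on the strand of the gene, and each ends before the first annotated base of the gene. Capitals mark matches, on either strand, to GCGTG, the core of the site bound by the aryl hydrocarbon receptor, to AGGTCA, a nuclear receptor half-site, and to TGACNNNGC, the core of the antioxidant response element.
Cyp1b1, chr17:79715062-79715311, minus strand: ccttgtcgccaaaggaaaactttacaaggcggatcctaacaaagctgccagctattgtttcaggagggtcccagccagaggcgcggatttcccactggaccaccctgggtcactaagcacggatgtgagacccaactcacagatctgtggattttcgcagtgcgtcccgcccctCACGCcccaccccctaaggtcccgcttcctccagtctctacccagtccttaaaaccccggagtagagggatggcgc
Cyp2f2, chr7:27119705-27119954, plus strand: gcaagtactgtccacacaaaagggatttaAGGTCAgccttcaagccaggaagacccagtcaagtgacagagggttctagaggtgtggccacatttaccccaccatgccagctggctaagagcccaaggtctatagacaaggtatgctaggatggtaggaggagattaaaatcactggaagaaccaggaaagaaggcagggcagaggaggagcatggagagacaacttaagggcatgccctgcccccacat
Cyp4f15, chr17:32685409-32685630, plus strand: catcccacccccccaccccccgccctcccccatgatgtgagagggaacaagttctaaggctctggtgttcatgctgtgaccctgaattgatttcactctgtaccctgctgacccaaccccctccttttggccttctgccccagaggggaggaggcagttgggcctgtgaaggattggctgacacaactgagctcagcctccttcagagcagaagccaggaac

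The Cyp1b1 window held 1 match to GCGTG, on the reverse strand with its first base 76 bases before the start, and 12 CG dinucleotides. The Cyp2f2 window held 1 match to AGGTCA, 221 bases before the start, and 0 CG dinucleotides, and the 222 bases of Cyp4f15 held no match to any of the 3 motifs and 1 CG. Among all 32851 windows of 250 bases in the table, 28.2% held GCGTG, 14.0% AGGTCA and 10.2% TGACNNNGC, and the median number of CG was 6. Of the 34 tested members 24 had a window, and 9 of them held GCGTG, 5 AGGTCA and 1 TGACNNNGC. A member was counted if any of its windows matched, whereas the shares above are per window. Aldh6a1, Cyp11a1 and Fmo2 had more than 1 window, and each held AGGTCA in only 1 of them. Of the 11 members with a called difference of at least 2-fold 7 had a window, and 4 of these held GCGTG, namely Cyp1b1, Cyp4v3, Aldh4a1 and the lower gene Cyp2j9. A match is a description of the letters only.

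The P450 enzymes that break down cholesterol were led by Cyp39a1. This enzyme hydroxylates the oxysterol that neurons make from cholesterol. It measured 260.9, 203.1 and 215.2 on the TRAP arrays and 103.5, 68.6 and 89.9 on the unbound arrays, with no overlap (2.61-fold higher, log2 1.39, SE 0.18, limma adjusted p = 0.0017). Cyp46a1, the neuronal enzyme that makes that oxysterol, measured 1727.4, 2188.4 and 2119.6 against 1835.6, 2281.5 and 2402.5. Its groups overlapped and no difference was called (log2 -0.11, SE 0.14, adjusted p = 0.53), and its sign turned to 0.06 to 0.32 under 3 other scalings. Cyp27a1, the mitochondrial sterol hydroxylase, was 1.42-fold higher (87.0 ± 0 against 61.6 ± 4.46, SD, n = 3, adjusted p = 0.0012). Cyp7b1, which acts on oxysterols and neurosteroids, had means of 471 and 478 and was not called (log2 -0.02, adjusted p = 0.73). Its sign turned to 0.19 to 0.41 under the other scalings, with a call in 2 of the 3, and its second kept probe set was 1.30-fold lower (adjusted p = 0.019 over probe sets).

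Of the steroid hormone P450 genes only Cyp11a1, which starts steroid synthesis by cutting the cholesterol side chain, passed the level minimum. It was 1.26-fold lower at 257 ± 0 against 323 ± 10.1 (SD, n = 3, limma adjusted p = 6.1e-04), and the call was lost under 3 other scalings, with a sign change to 0.10 in 1 of them. Its other 2 probe sets lay under 20. Cyp20a1, a P450 without a settled substrate, had means of 666 and 579 and was not called (log2 0.20, adjusted p = 0.061), but was called higher under the 3 other scalings.

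Of the flavin monooxygenases, Fmo1 was clearly higher in TRAP RNA, at 549.7, 631.2 and 387.4 against 88.5, 102.4 and 128.8. Even the lowest TRAP array was far above the highest unbound array. The difference was 4.87-fold (log2 2.28, SE 0.23, limma adjusted p = 6.8e-04) and was called under each alternative tried. Fmo5, which also acts on ketones, measured 73.3, 56.7 and 37.2 against 29.9, 29.1 and 29.1 and was 1.83-fold higher (adjusted p = 0.029). That call was lost without any 1 of TRAP replicates 1 and 2 and the unbound samples (adjusted p from 0.053 to 0.087) and with values under 50 raised to 50 (1.19-fold, adjusted p = 0.20). Fmo2, the main lung form, gave 53.1 ± 4.97 against 51.5 ± 13 on its brightest probe set and was not called (log2 0.07, adjusted p = 0.77). Its 4 dimmer probe sets stayed under a mean of 50 in both groups and were not tested. Their means were 35.3 against 14.1, 15.1 against 7.49, 19.0 against 11.3 and 5.97 against 6.18. Fmo4 lay between 9.72 and 15.5 on all 6 arrays. The Fmo1 difference accompanied the higher fibroblast, pericyte and endothelial marker sums given above, although each of these lists also held lower markers. Itm2a was the largest part of the endothelial sum, and of the 6 tested endothelial markers 3 were higher and 2 lower. The part of fibroblasts, pericytes and endothelium in the Fmo1 difference was not tested.

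Of 7 tested aldehyde dehydrogenases of lipid and toxic aldehydes, 1, Aldh2, was higher and 4 were lower, where 23.3% and 45.7% of all tested genes were called so. The lower calls of Aldh3a1 and Aldh1a7 were lost under each of 3 other scalings, which left 2 of 7 lower against 22.3% to 33.2% of all genes. Aldh2, the mitochondrial enzyme of acetaldehyde and lipid peroxidation products, measured 3011.3, 3354.6 and 2450.2 on the TRAP arrays and 1457.3, 1341.3 and 1457.3 on the unbound arrays. The groups were apart, and the difference was 2.06-fold (log2 1.04, SE 0.13, limma adjusted p = 0.0012). Its other 3 kept probe sets, with group means of 83.7 to 135, were not called (log2 0.01, 0.02 and -0.28), and averaging the 4 gave a log2 difference of 0.20 that was not called (adjusted p = 0.32). Another Aldh2 probe set, under the minimum, read lower in TRAP RNA, at 16.7 against 45.4.

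Aldh1b1, a mitochondrial relative of Aldh2, was 1.73-fold lower at 97.7, 97.7 and 100 against 170.1 on each unbound array (limma adjusted p = 1.3e-05). Aldh3b2 was 1.68-fold lower (56.8 ± 0 against 95.6 ± 7.09, SD, n = 3, adjusted p = 2.9e-04). Aldh3a1, the corneal enzyme, had means of 55.7 and 76.9 (log2 -0.45, adjusted p = 0.028), a call lost without any 1 of the TRAP samples or unbound replicate 2 (adjusted p from 0.076 to 0.080). Aldh1a7, a close rodent copy of Aldh1a1 whose RNA its probe set may also read, had means of 81.5 and 94.5 (log2 -0.21, adjusted p = 0.021), lost without any 1 of TRAP replicates 2 and 3 and unbound replicates 1 and 2 (0.053 to 0.065), and with arrays centred on all probe sets it was called higher at 0.22. Aldh3a2, the fatty aldehyde dehydrogenase, had means of 539 and 467 (log2 0.22, adjusted p = 0.21) and was called higher under the 3 other scalings. Aldh3b1, which acts on lipid aldehydes at membranes, overlapped between groups (88.5 ± 24.1 against 74.2 ± 12.2) and was not called.

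Aldehyde dehydrogenases of amino acid, GABA, folate and polyamine metabolism had 3 of 8 tested members higher, 3 lower and 2 not called, where 23.3% of all tested genes were higher and 45.7% lower. Aldh4a1, which completes the breakdown of proline to glutamate, measured 131.2 on each TRAP array and 53.2 on each unbound array. Identical values within a group leave no spread of the gene's own, so its standard error (log2 1.30, SE 0.02, 2.47-fold, limma adjusted p = 2.6e-06) comes from the spread of other genes. Aldh18a1, which makes proline from glutamate, was not called (562 ± 14.9 against 636 ± 113, SD, n = 3, log2 -0.17, adjusted p = 0.31), and its sign turned to 0.05 to 0.27 under 3 other scalings. Of its 4 kept probe sets 2 were called lower, by 1.22-fold and 1.29-fold. Averaging the 4 gave a log2 difference of -0.22 that was called lower (limma adjusted p = 0.023).

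Aldh7a1, which acts in lysine breakdown and on betaine aldehyde, measured 3865.4, 3303.2 and 2691.5 against 1695.9, 1594.4 and 1546.4. The TRAP values spread more than the unbound ones but stayed above them (2.02-fold, log2 1.01, SE 0.14, limma adjusted p = 0.0021). Its other 2 probe sets lay under 50. Aldh16a1, a member thought to lack catalytic activity, measured 155.8, 146.4 and 139 against 67.2 on each unbound array and was 2.19-fold higher (log2 1.13, SE 0.05, adjusted p = 3.3e-05), while its other kept probe set was 1.21-fold higher.

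Aldh5a1, which oxidises succinic semialdehyde in the last step of GABA breakdown, was lower, at 792.5, 923.5 and 738.3 against 1553.8, 1606.7 and 1598.2. The groups were well apart (1.95-fold lower, log2 -0.96, SE 0.09, limma adjusted p = 4.6e-04), and the call held under the 3 other scalings. Abat, the transaminase of the step before it, was 2.86-fold lower (1181 ± 64.3 against 3375 ± 136, SD, n = 3, adjusted p = 1.9e-05). The summed astrocyte, oligodendrocyte, microglial, interneuron and pyramidal neuron markers given above were lower as well, and the part of these cells in these values was not tested. Aldh6a1, of valine and pyrimidine breakdown, was 1.38-fold lower (adjusted p = 0.016), a call lost without TRAP replicate 2 or 3 (0.052 and 0.055) or with arrays centred on either median. Aldh1l2, the mitochondrial enzyme of folate oxidation, was 1.67-fold lower (32.1 ± 5.44 against 53.2 ± 0.639, adjusted p = 0.0043), or 1.06-fold with values under 50 raised to 50, and lost its call with arrays centred on all probe sets (adjusted p = 0.072). Aldh9a1, which makes GABA from putrescine and serves carnitine synthesis, measured 2020.3, 2673.2 and 1438.7 against 1637.7, 1446.3 and 1561.7 and was not called (log2 0.36, adjusted p = 0.23). Without TRAP replicate 3, its lowest TRAP value, Aldh9a1 was called higher (log2 0.59, adjusted p = 0.029), as it was with arrays centred on either median. Its second kept probe set pointed the other way, at 294 ± 50.8 against 357 ± 19.7 (SD, n = 3), and was not called (log2 -0.29, limma adjusted p = 0.12 over probe sets).

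**Figure D3:**
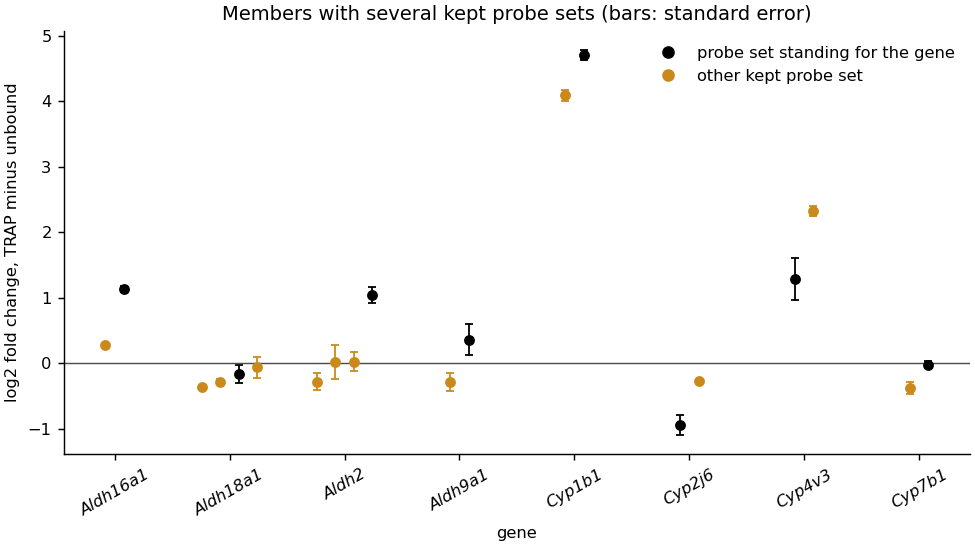
Log2 fold change between TRAP and unbound RNA with its standard error for each kept probe set of the 8 members that have several, the probe set standing for the gene in black. With low values as deposited, both kept probe sets of Cyp1b1 and Cyp4v3 lie above 1, while 1 of 4 Aldh2 probe sets does so and the other 3 lie between -0.28 and 0.02.

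Tested singly over all 20291 kept probe sets with 1 symbol, 15 of the 46 kept member probe sets were called higher, 17 lower and 14 not called by limma, against 21% higher and 46.6% lower over all. Of the 8 members with several kept probe sets, Cyp1b1, Cyp4v3, Aldh16a1 and Cyp2j6 had every kept probe set called in the same direction, and no member had kept probe sets called in opposite directions. A further 18 probe sets of tested genes lay under the minimum.

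The other 57 member genes, with 69 probe sets, stayed under a mean of 50 in both groups, with single values from 2.16 to 42.3. They included 32 P450 genes of foreign compounds, among them Cyp1a1, Cyp1a2, Cyp2e1 and every Cyp2b, Cyp2c and Cyp3a member. They also included 13 fatty acid P450 genes, among them Cyp2u1 (values up to 39.8 in that group), the bile acid genes Cyp7a1 and Cyp8b1 (4.95 to 20.5), 4 steroid hormone genes including Cyp17a1 and Cyp21a1 (3.64 to 27.5), the vitamin D genes Cyp2r1, Cyp24a1 and Cyp27b1 (4.30 to 20.2), the retinoic acid hydroxylase gene Cyp26a1 (9.0 to 16.8) and Aldh8a1 (3.67 to 10.3). The gene nearest to the minimum was Cyp2d40, at 38.4 ± 0 against 42.3 ± 0 (SD, n = 3). Such values do not separate absence of the RNA from a dim or misplaced probe set. Without the minimum, limma called 25 of the 91 genes higher and 43 lower, where 26.4% and 45.9% of all genes were called so.

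The balance of calls depended on how arrays were scaled, since the unbound arrays read higher overall. With arrays centred on the median of all probe sets 18 of 34 members were higher and 6 lower by limma (47.3% and 22.3% of all genes), with quantile normalisation 16 and 8 (34.1% and 33%), and with arrays centred on the tested genes 16 and 7 (34% and 33.2%). The median of all genes moved from -0.21 to 0.23, 0.0037 and 0.0054 under these scalings, and that of the members from 0.12 to 0.55, 0.42 and 0.33. All 12 higher calls held under all 3, as did 6 of the 13 lower calls, namely Cyp4f15, Cyp2j9, Aldh5a1, Cyp2j6, Aldh1b1 and Aldh3b2. All 3 scalings raised the log2 difference of every tested member, so they could hardly remove a higher call. No scaling that lowered the differences was tried. Without TRAP replicate 3 the lower calls fell to 8 and the higher ones numbered 13.

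**Figure D4:**
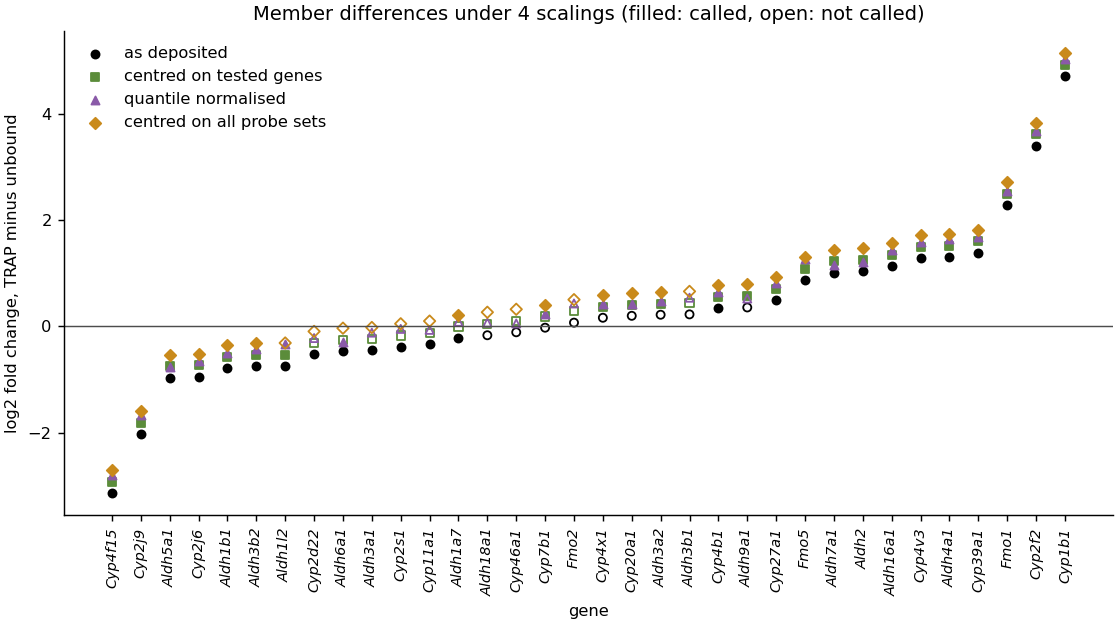
Log2 fold change between TRAP and unbound RNA of the 34 tested members as deposited and under 3 other scalings of the arrays, filled where limma called the gene. The 11 members with at least a 2-fold difference stay filled on the same side of 0 throughout, and 6 members near 0 change sign (Aldh18a1, Aldh1a7, Cyp11a1, Cyp2s1, Cyp46a1 and Cyp7b1). The 3 other scalings raise every member, so they could hardly remove a higher call.

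Repeated values limit the error estimate. Of the 34 members 13 had 6 different values, 7 were constant within 1 group and Aldh4a1 within both, and 49.4% of all tested genes had 6 different values. The smallest adjusted p-values of members with repeats therefore lean on the spread of other genes. A test against a 2-fold change, limma's treat, called Cyp1b1, Cyp2f2, Fmo1 and Aldh4a1 higher and Cyp4f15 and Cyp2j9 lower, where 4.53% and 6.56% of all genes were called. The calls of Cyp1b1, Cyp2f2, Cyp4f15 and Cyp2j9 rest on values under 50 in 1 group, with group means of 16, 10.5, 13.1 and 31.5. With those values raised to 50 Cyp2f2 was not called even without the 2-fold margin (adjusted p = 0.071).

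Of 38 tested genes that serve, regulate or work beside the members, limma called 18 higher and 9 lower, against 23.3% and 45.7% of all tested genes. These genes were listed with earlier results of these data known, so the counts are a description only. The counts moved with the scaling, to 24 and 2 with arrays centred on all probe sets and to 23 and 5 both with quantile normalisation and with arrays centred on the tested genes. Of 10 tested electron donor and haem-related genes 4 were higher and 3 lower, or 7 and 0 with arrays centred on all probe sets. This list held 16 genes, of which 12 were on the arrays. The P450 reductase gene Por was not among the 10 tested. Fdx1, the ferredoxin of mitochondrial P450 enzymes, was 2.33-fold higher (3516 ± 610 against 1502 ± 168, SD, n = 3, adjusted p = 0.0017), Cyb5a, cytochrome b5, 1.80-fold and the reductase of cytochrome b5, Cyb5r3, 1.38-fold. Cyb5r3 was not called on probe sets with 6 different values (adjusted p = 0.059). Cyb5b was 1.44-fold lower, but its average over kept probe sets was 0.08, and on probe sets with 6 different values it was called higher at 0.87. Its lower call was lost with arrays centred on all probe sets. Pgrmc2 was 1.26-fold lower (0.10 with arrays centred on all probe sets). Cyb5r1 had means of 465 and 556 (adjusted p = 0.047) and was not called with the replicate block (adjusted p = 0.081), under 3 other scalings, or without any 1 of TRAP replicates 1 and 3 and the unbound samples (0.091 to 0.135).

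Of 11 tested regulators of these genes 4 were higher and 4 lower, or 4 and 1 with arrays centred on all probe sets. The stress response factor gene Nfe2l2 was 4.44-fold higher (1582 ± 312 against 351 ± 0, SD, n = 3, limma adjusted p = 1.9e-04), Nr1h3, an oxysterol receptor gene, 4.31-fold and the fatty acid receptor gene Ppara 2.76-fold. Nr1h3 was 1.5-fold higher with values under 50 raised to 50. The retinoid receptor gene Rxrg was 2.90-fold lower. The aryl hydrocarbon receptor gene Ahr, known to drive Cyp1b1, was 1.39-fold lower (564 ± 19.2 against 790 ± 126, adjusted p = 0.020), and its partner gene Arnt 1.32-fold lower. The Ahr call was lost under 3 other scalings and without any 1 of the TRAP samples or unbound replicate 3 (adjusted p from 0.052 to 0.068), and Arnt turned to 0.04 and Keap1 to 0.18 with arrays centred on all probe sets.

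Of 17 tested enzymes that act beside these families 10 were higher and 2 lower, or 13 and 1 with arrays centred on all probe sets. Aox3, an aldehyde oxidase gene, measured 447 ± 113 against 20.6 ± 0 (SD, n = 3, 21.2-fold, limma adjusted p = 2.9e-05), and Ptgis, the prostacyclin synthase and itself a P450 by structure, 482 ± 34.3 against 23.7 ± 0 (20.3-fold, adjusted p = 1.1e-06). With values under 50 raised to 50 they were 8.76-fold and 9.62-fold higher. Sult1a1, a phenol sulphotransferase gene, was 19.6-fold higher (1870 ± 65.0 against 101 ± 41.6). Besides Abat, the monoamine oxidase gene Maob was lower, by 2.13-fold (adjusted p = 0.013), a call lost with arrays centred on all probe sets (adjusted p = 0.052).

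**Figure D5:**
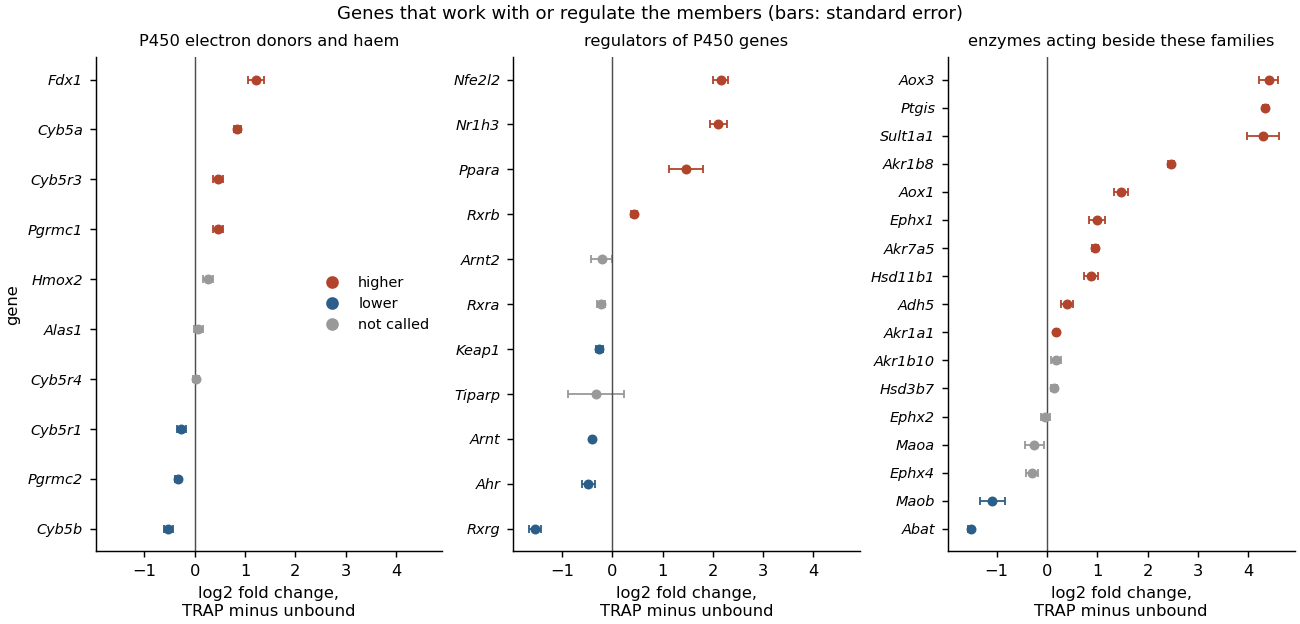
Log2 fold change between TRAP and unbound RNA with standard errors for the tested electron donor and haem genes, regulators and neighbouring enzymes, coloured by the limma call. Aox3, Ptgis and Sult1a1 lie beyond 4, and the electron donor and haem genes lie between -0.53 and 1.22. Of the called lower values, those of Pgrmc2, Cyb5r1, Arnt and Keap1 turn sign with arrays centred on all probe sets, and that of Cyb5b with another choice of probe sets.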

How the data were processed

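RNA (15 ng, amplified in 2 cycles per the labels' protocols) was read on 6 arrays. The deposited values are probe set intensities on a linear scale, made by the authors with GCRMA per the submitters' processing notes; its version, and whether the groups were summarised together, are not given in the sources used here. Gene symbols came from the platform annotation, and all 91 member genes matched RefSeq (GRCm38.p6) by Entrez ID. Promoter sequences are RefSeq's.

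Values were taken as log2 without a pseudocount and fitted with limma 3.58.1 in R 4.3.3 (group only, two-sided). The minimum of 50 follows the series text, whose recommended list of neuronal probe sets was not used here. The fit was tested on simulated data, drawn independently for each sample. That test does not cover the repeated values or any link between samples in these data. Every member is accounted for, those called at 2-fold in full, and up to 3 called genes per direction of each partner list are named. The members and lists were chosen with earlier results of these data known. Deviations from group means correlated between same-numbered TRAP and unbound samples (0.50, 0.46 and 0.37 over 12070 genes), so these samples may be paired. The main fit was unpaired, and the replicate block was run as an alternative. The titles number the samples as biological replicates but state no pairing. Alternatives covered scaling, level filter, raised values, pseudocount, probe set choice, repeated values, a 2-fold test, the replicate block and each sample left out. 0 value columns were unused.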

Additional observations from a re-analysis of the deposited data

How the results depend on the processing

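Of 551 values for single members under an alternative, 459 kept their direction and side of the threshold, 61 lost their call, 14 gained one and 17 changed sign. The counts of members called higher and lower were 25 and 43 without the level filter, 4 and 4 on probe sets with 6 different values, and 4 and 2 by limma's treat. The lower count was 6 with arrays centred on all probe sets, 8 with quantile normalisation and 7 with arrays centred on the tested genes, a scaling chosen after the data were seen. Over all genes the counts were 4797 and 8354 without the filter, 1372 and 2734 on probe sets with 6 different values, 547 and 792 by treat, and 5713 and 2692 with arrays centred on all probe sets. The members' median was 0.55, 0.42 and 0.33 under the scalings in the order above, -0.091 without the filter and 0.22 on probe sets with 6 different values. With 1 sample left out, members higher ranged from 10 to 13, lower from 8 to 13 and the median from 0.055 to 0.12. Over all genes these fits gave 2440 to 2818 higher and 4863 to 5201 lower.

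Signs turned as follows. With arrays centred on all probe sets the log2 differences were 0.27 for Aldh18a1, 0.22 for Aldh1a7, 0.10 for Cyp11a1, 0.051 for Cyp2s1, 0.32 for Cyp46a1, 0.41 for Cyp7b1, 0.037 for Arnt, 0.17 for Cyb5r1, 0.18 for Keap1 and 0.095 for Pgrmc2. With quantile normalisation they were 0.072 for Aldh18a1, 0.088 for Aldh1a7, 0.056 for Cyp46a1 and 0.23 for Cyp7b1, and with arrays centred on the tested genes 0.046, 0.10 and 0.19 for Aldh18a1, Cyp46a1 and Cyp7b1. Fmo2 was -0.048 with raised values and ranged from -0.11 to 0.26 with 1 sample left out, negative without TRAP replicate 2 or unbound replicate 1, and Cyp7b1 ranged from -0.066 to 0.031, positive without TRAP replicate 1. Cyb5b was 0.077 as a mean of probe sets and 0.87 on probe sets with 6 different values. Centring the arrays on a median shifts each gene by the same amount by construction. Under quantile normalisation the shift differed between genes, with Aldh7a1 moving from 1.01 to 1.16 and Fmo5 from 0.87 to 1.27. Other causes were not tested.

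The replicate block gave 12 members higher and 12 lower and changed no call of a member or named gene other than Cyp2d22 (adjusted p = 0.069) and Cyb5r1 (adjusted p = 0.081). Background correction and array batches could not be varied from the values used here. Signal near background limits the folds of Cyp1b1, Cyp2f2, Cyp2j9, Cyp4f15, Fmo5, Aldh1l2 and the second probe set of Cyp4v3.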
